A study of Homo sapiens with 15 samples.

Results

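Expression of 10 genes that act directly downstream of the GTPase RAC1 was followed by RNA sequencing in A375, an established human melanoma line. They were the p21-activated kinases PAK1, PAK2 and PAK4 and 7 subunits of the WAVE actin-regulatory complex, WASF1, WASF2, WASF3, CYFIP1, CYFIP2, NCKAP1 and ABI1. The genes were chosen by name, as direct RAC1 effectors and WAVE regulators, and these 10 stand among 16768 gene symbols in one experiment and 16295 in the other. There were 15 libraries of total RNA in 5 groups of 3. In the first experiment the cells overexpressed VAV1, an exchange factor that loads RAC1 with GTP, and were treated with saracatinib, an inhibitor of SRC family kinases. The matching VAV1 cells received vehicle, and empty vector (EV) cells received vehicle. In the second experiment untreated cells overexpressed RAC1 P29S, an activated form of RAC1 found in melanoma, and their EV cells were untreated too. The labels give neither dose nor duration for saracatinib, and no EV cells with saracatinib were among the samples. All 5 groups thus share the A375 background and a vector, and the series describes each condition as a biological triplicate without saying whether the cultures were separately transduced. The p-values therefore measure the spread between these cultures.

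Group I PAK kinases, here PAK1 and PAK2, are held inactive until GTP-bound RAC1 or CDC42 binds them. They then phosphorylate substrates that include LIM kinases and other regulators of actin and of MAPK signalling. The WAVE complex has 5 kinds of subunit. A WASF protein carries the domain that activates the Arp2/3 complex, a CYFIP protein binds GTP-loaded RAC1, and an NCKAP1, an ABI and a small BRK1 subunit complete the assembly. When RAC1 binds CYFIP, the WASF activation domain is released and Arp2/3 nucleates the branched actin networks of lamellipodia. Both PAK and WAVE are regulated mainly as proteins, by RAC1 binding and by phosphorylation, whereas the measurements given here are of their mRNA.

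In GENCODE 29, on GRCh38, each of the 10 genes lies on a chromosome of its own. CYFIP1 is at chr15:22867052-22981063 on the minus strand and CYFIP2 at chr5:157266079-157395595 on the plus strand. WASF1 is at chr6:110099819-110180004 and WASF2 at chr1:27404226-27490158, both on the minus strand, and WASF3 is at chr13:26557703-26688948 on the plus strand. PAK1 is at chr11:77321707-77474635 on the minus strand, and PAK2 at chr3:196739857-196832647 and PAK4 at chr19:39125770-39182816 are on the plus strand. NCKAP1 is at chr2:182909115-183038858 and ABI1 at chr10:26746593-26861087, both on the minus strand. One value per gene symbol was deposited, so isoforms are not separated.

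Values are the log2 of a normalized count plus 1 as deposited, so a difference of 1 is a doubling. They are not divided by transcript length, and the 2 experiments were scaled separately, so levels of different genes and levels across the experiments are not compared. Differences between a pair of genes are set side by side only within a library. After undoing the log, the libraries summed to 14443918 to 16262759 normalized counts, and the depth in reads is unknown. VAV1 averaged 14.12 ± 0.03 in VAV1 cells with saracatinib, 13.91 ± 0.04 in VAV1 cells with vehicle and 2.22 ± 0.30 in EV cells with vehicle (SD, n = 3 each). RAC1 averaged 14.93 ± 0.03 in RAC1 P29S cells and 11.88 ± 0.02 in untreated EV cells (SD, n = 3 each). A second label of the RAC1 P29S samples names the empty vector, and the RAC1 level in each of them went with the title. The RAC1 value does not separate the P29S form from the cells' own RAC1. The melanocyte lineage regulators SOX10 and MITF were expressed, whereas the pigment enzymes TYR and DCT were not listed in the first experiment. MLANA and TYRP1 were low in every group, with mean log2 values of 1.90 to 3.70. The summed normalized count of the listed melanocyte markers, 8 of 10 in the first experiment and 10 in the second, was 5343 to 5552 in VAV1 cells with saracatinib, 4066 to 4202 in VAV1 cells with vehicle and 15425 to 15465 in EV cells with vehicle. It was 7314 to 7465 in RAC1 P29S cells and 16189 to 16822 in untreated EV cells. SOX10 and ERBB3 make up most of this sum, and MITF went the other way, with a mean log2 value of 10.09 in VAV1 cells with vehicle and 8.53 in EV cells with vehicle, and of 9.58 in RAC1 P29S cells and 8.35 in untreated EV cells. Of 5 tested melanocyte markers, 1 was higher and 3 were lower both with VAV1 and with RAC1 P29S. The sum of the 5 listed of 8 epithelial markers, mostly KRT18 and KRT8 and without EPCAM, was 8232 to 8643 in VAV1 cells with saracatinib, 13181 to 14144 in VAV1 cells with vehicle and 6391 to 7251 in EV cells with vehicle. It was 6495 to 7229 in RAC1 P29S cells and 3433 to 3885 in untreated EV cells. Of the 4 tested with VAV1, the keratins KRT18 and KRT8 were higher and CLDN4 and KRT14 lower, with a median log2 fold change of -0.05. Whether these shifts have a part in the results was not tested.

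**Figure D1:**
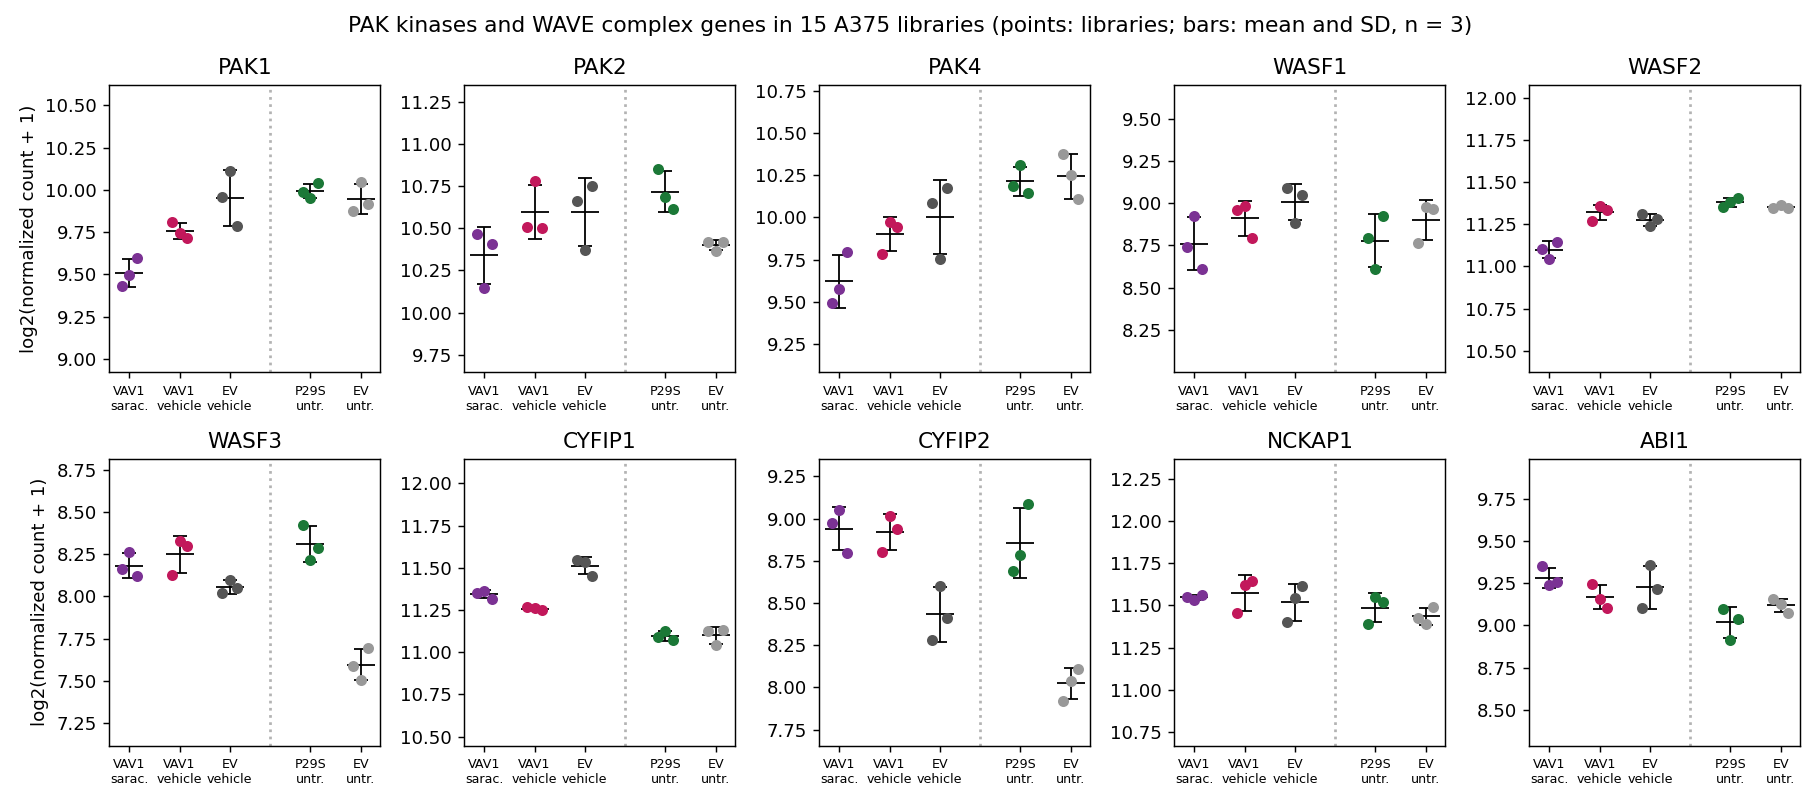
Deposited log2 normalized count (vertical axis) of the 10 genes in each of the 15 libraries, with a point per library, bars for the mean and SD of each group (n = 3), and the groups of each experiment side by side. CYFIP2 is higher in the 3 VAV1 vehicle libraries, at 8.80 to 9.02, than in the 3 EV vehicle libraries, at 8.28 to 8.60, and NCKAP1 overlaps between all groups of an experiment.

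Between 5 and 8 of the 10 genes did not pass the test in a comparison. With VAV1, CYFIP2 rose and CYFIP1 fell relative to EV cells, and the other 8 did not pass the limma test at an adjusted p under 0.05. Over all 14410 genes tested in that comparison 43.7% passed, 23.6% higher and 20.1% lower, so 2 of 10 was below the background share. The median absolute log2 fold change was 0.0986 for the 10 genes and 0.265 for all genes. With RAC1 P29S, CYFIP2, WASF3 and PAK2 rose and none of the 10 fell. There the background was 31.1% of 14036 genes, 15.6% higher and 15.5% lower, and the median absolute log2 fold change was 0.0761 for the 10 genes and 0.208 for all genes. Saracatinib in VAV1 cells lowered PAK1 and WASF2 relative to vehicle and raised none of the 10, against a background of 37.3% called, 18.3% higher and 19.1% lower. VAV1 cells with saracatinib differed from EV cells with vehicle in 5 of the 10 genes, where 43.4% of all genes passed. CYFIP2 was higher, against 22.4% of genes higher, and PAK1, PAK4, WASF2 and CYFIP1 were lower, against 21.0% lower. The 3 comparisons of the first experiment share groups of libraries and are not independent.

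The libraries of the compared groups did not overlap for 3 of the 10 genes with VAV1, where 52.7% of all genes did not, and for 3 with RAC1 P29S, against 45.0% of all genes. They did not overlap for 4 of the 10 with saracatinib relative to vehicle, against 49.4%, and for 5 between VAV1 cells with saracatinib and EV cells with vehicle, against 52.8%. The median log2 fold change of the 10 genes was -0.03 with VAV1, -0.11 with saracatinib relative to vehicle, -0.17 with saracatinib relative to EV cells and 0.04 with RAC1 P29S. Over all genes it was 0.02, -0.01, 0.00 and -0.00 in the same order of comparisons. The median absolute log2 fold change was 0.132 for the 10 genes and 0.247 for all genes with saracatinib relative to vehicle, and 0.213 and 0.268 relative to EV cells. In each of the 4 comparisons the median of the 10 was below that of all genes, although single members such as CYFIP2 with VAV1 or RAC1 P29S were above it.

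**Figure D2:**
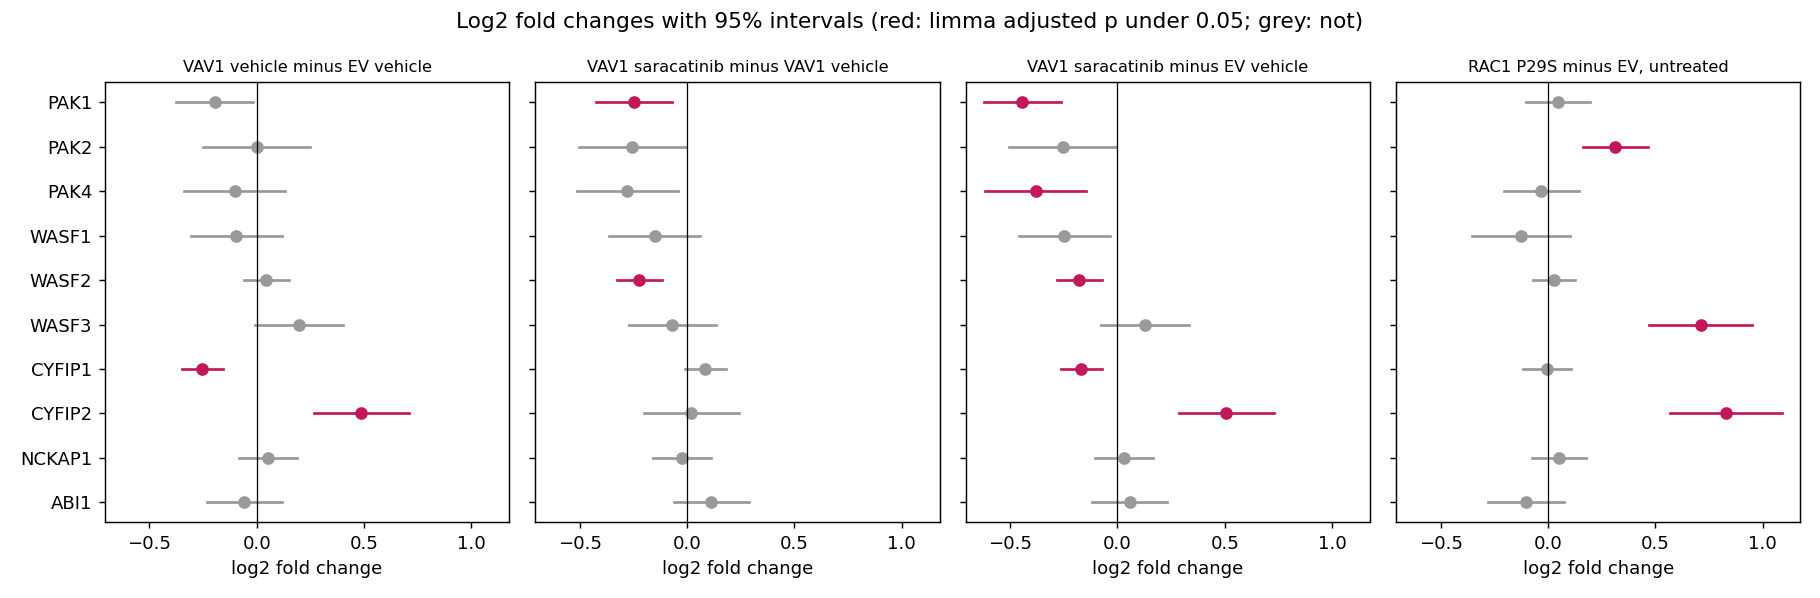
Log2 fold change of each of the 10 genes (horizontal axis) in the 4 comparisons of 2 groups, with 95% intervals from limma, red for adjusted p under 0.05 and grey otherwise. CYFIP2 lies to the right of 0 with VAV1, at 0.49, and with RAC1 P29S, at 0.83, while PAK1 lies left of 0 in both saracatinib comparisons, at -0.25 and -0.44.

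CYFIP2, one of a pair of RAC1-binding subunits of the WAVE complex, had the widest range of group means among the 10 genes in the first experiment. Its log2 value was 8.97, 9.05 and 8.80 in VAV1 cells with saracatinib, 8.80, 9.02 and 8.94 in VAV1 cells with vehicle and 8.28, 8.60 and 8.41 in EV cells with vehicle. Every library of VAV1 cells, with or without the inhibitor, was above every EV library, while the VAV1 groups overlapped each other. The rise with VAV1 was 0.49 ± 0.10 (SE), or 1.40-fold, with a limma adjusted p of 0.00177. The saracatinib and vehicle groups of VAV1 cells differed by 0.02 ± 0.10, with a limma adjusted p of 0.899 and a 95% interval of -0.20 to 0.24. Relative to EV cells with vehicle, VAV1 cells with saracatinib were 0.51 ± 0.10 higher, or 1.42-fold, with a limma adjusted p of 0.00139. In RAC1 P29S cells CYFIP2 was at 8.69, 8.78 and 9.09, against 7.92, 8.04 and 8.11 in untreated EV cells. The groups did not overlap, and the rise was 0.83 ± 0.12, or 1.78-fold, with a limma adjusted p of 0.000406.

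CYFIP1, the paralogue that occupies the same position in the complex, moved the other way with VAV1. Its log2 value was 11.35, 11.36 and 11.32 in VAV1 cells with saracatinib, 11.27, 11.26 and 11.25 in VAV1 cells with vehicle and 11.55, 11.53 and 11.45 in EV cells with vehicle. The 3 groups were separate, with the saracatinib libraries between the others. CYFIP1 fell by 0.25 ± 0.04 with VAV1, a 1.19-fold lower level with a limma adjusted p of 0.000427. VAV1 cells with saracatinib differed from EV cells with vehicle by -0.17 ± 0.04 (limma adjusted p = 0.00760). Their difference of 0.09 ± 0.04 to VAV1 cells with vehicle did not pass (limma adjusted p = 0.153), although under quantile normalization it was 0.13 with a limma adjusted p of 0.0301. In RAC1 P29S cells CYFIP1 was at 11.09, 11.13 and 11.07, against 11.13, 11.04 and 11.13 in untreated EV cells. These groups overlapped, and the 95% interval of the difference was -0.11 to 0.11. CYFIP1 lies on chromosome 15 beside NIPA2, a magnesium transporter gene on the opposite strand, and 12.3% of the 31-base words of its GENCODE 29 transcripts also occur in NIPA2 transcripts. NIPA2, looked up after its values were seen, moved opposite to CYFIP1 with VAV1, at 0.27 ± 0.05 (limma adjusted p = 0.00133). Whether any reads were divided between the neighbours was not tested, and the annotation used by the authors is not given in the sources used here.

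**Figure D3:**
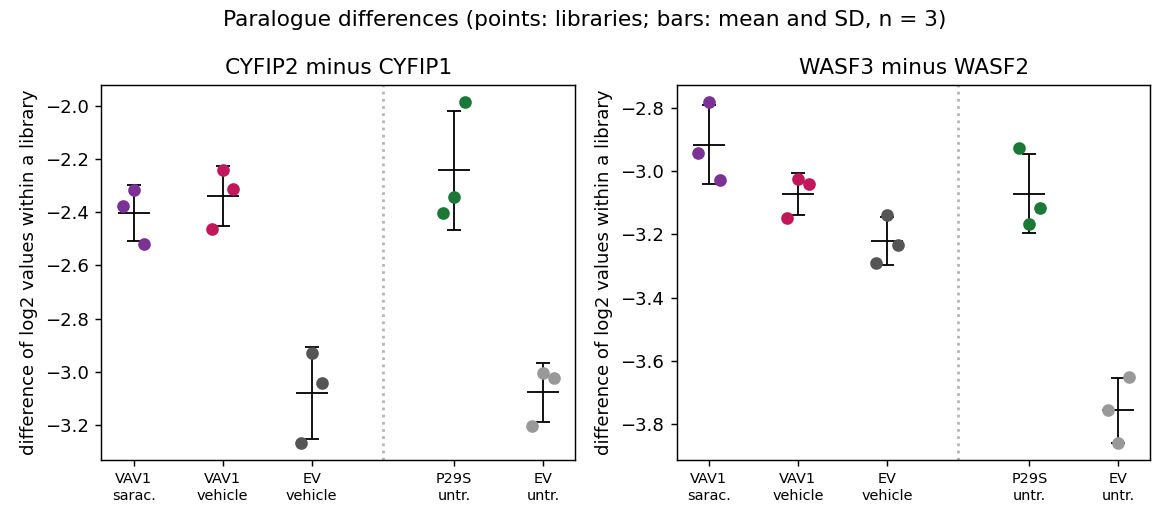
Difference of log2 values within each library (vertical axis) between CYFIP2 and CYFIP1 and between WASF3 and WASF2, with one point per library and bars for the mean and SD of each of the 5 groups (n = 3). The CYFIP2 minus CYFIP1 difference averages -2.34 in VAV1 vehicle libraries against -3.08 in EV vehicle libraries, and -2.24 in RAC1 P29S libraries against -3.08 in untreated EV libraries.

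The balance between the CYFIP paralogues can be read within a library, where scaling cancels. The pair was picked after its values were seen and is described without a test. CYFIP2 minus CYFIP1 averaged -2.40 ± 0.10 in VAV1 cells with saracatinib, -2.34 ± 0.11 in VAV1 cells with vehicle and -3.08 ± 0.17 in EV cells with vehicle (SD, n = 3 each). It averaged -2.24 ± 0.22 in RAC1 P29S cells and -3.08 ± 0.11 in untreated EV cells (SD, n = 3 each). The shift toward CYFIP2 was 0.74 with VAV1 and 0.83 with RAC1 P29S, and no library of either overexpressing line overlapped its EV libraries. With VAV1 both paralogues contributed to the shift, whereas with RAC1 P29S CYFIP2 alone passed the test. The transcripts of the paralogues had 11 of these 31-base words in common.

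The 3 genes that rose with RAC1 P29S are on chromosomes 5 (CYFIP2), 13 (WASF3) and 3 (PAK2). Their RefSeq promoter sequences from GRCh38.p14, ended at the start of the GENCODE 29 gene, are printed because these genes moved together in that comparison. CYFIP2 and WASF3 each had a further RefSeq window, and the window nearest before the GENCODE start is given. All 3 genes are on the plus strand. Capitals mark matches on either strand to the GC box GGGCGG and to CCAAT.

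CYFIP2, chr5:157265873-157266078: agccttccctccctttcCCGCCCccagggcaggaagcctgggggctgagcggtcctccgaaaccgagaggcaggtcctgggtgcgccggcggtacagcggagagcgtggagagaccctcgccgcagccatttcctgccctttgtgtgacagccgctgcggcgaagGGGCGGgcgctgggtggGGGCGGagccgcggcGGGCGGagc
WASF3, chr13:26557453-26557702: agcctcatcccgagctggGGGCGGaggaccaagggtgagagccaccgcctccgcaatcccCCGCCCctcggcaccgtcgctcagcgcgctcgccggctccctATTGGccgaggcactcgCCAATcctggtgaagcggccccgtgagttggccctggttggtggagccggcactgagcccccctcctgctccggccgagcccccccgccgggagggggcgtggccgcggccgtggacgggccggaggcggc
PAK2, chr3:196739607-196739856: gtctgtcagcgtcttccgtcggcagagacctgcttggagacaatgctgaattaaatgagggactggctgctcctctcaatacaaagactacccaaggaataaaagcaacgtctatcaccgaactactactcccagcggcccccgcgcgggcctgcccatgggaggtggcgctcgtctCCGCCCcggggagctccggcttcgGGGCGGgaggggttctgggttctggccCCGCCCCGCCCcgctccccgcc

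The CYFIP2 window held 4 GC boxes and no CCAAT, the WASF3 window 2 of each, and the PAK2 window 4 GC boxes, among them an overlapping pair, and no CCAAT. None of the 3 held the AP-1 motif TGANTCA, the TEAD motif GGAATG or an SRF CArG box in these letters. Of 35116 promoter windows of 250 bases, 42.6% held the GC box, 32.0% CCAAT, 6.57% the AP-1 motif, 11.9% the TEAD motif and 1.16% the CArG box. Over the 206 bases given for CYFIP2 the shares were 36.2%, 28.3%, 5.45%, 10.0% and 0.903% in the same order of motifs. The further CYFIP2 window, at chr5:157269074-157269323, held no GC box and no CCAAT. GC boxes also occurred in windows of genes that did not rise with RAC1 P29S, among them WASF1, PAK1 and PAK4. A match describes these letters only.

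WASF3, a WAVE protein known for roles in invasion of tumour cells, rose with RAC1 P29S. Its log2 value was 8.42, 8.21 and 8.29 in RAC1 P29S cells, against 7.59, 7.51 and 7.69 in untreated EV cells. The groups were far apart, and the rise was 0.71 ± 0.11 (SE), or 1.64-fold, with a limma adjusted p of 0.000646. In the first experiment WASF3 was at 8.16, 8.26 and 8.12 in VAV1 cells with saracatinib, 8.12, 8.33 and 8.30 in VAV1 cells with vehicle and 8.02, 8.10 and 8.05 in EV cells with vehicle. Both VAV1 groups were above the EV libraries without overlap, but the difference of 0.20 ± 0.09 for VAV1 with vehicle did not pass (limma adjusted p = 0.113). As given for all genes, groups without overlap were common in that comparison. In GENCODE 29, 37.8% of the 31-base words of WASF3 transcripts also occur in the antisense gene AL159978.1. Whether the counting used strand is not given in the sources used here, so reads of those shared words may not be told apart.

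WASF2, a broadly expressed WAVE protein, and WASF1, its relative best known from neurons, changed less than WASF3 with RAC1 P29S, while in the first experiment WASF2 passed the test with saracatinib and WASF3 passed in no comparison. WASF2 was at 11.10, 11.05 and 11.15 in VAV1 cells with saracatinib, 11.27, 11.36 and 11.34 in VAV1 cells with vehicle and 11.31, 11.24 and 11.28 in EV cells with vehicle. The saracatinib libraries were the lowest, below both other groups, which overlapped each other. Saracatinib lowered WASF2 relative to vehicle, by 0.22 on the log2 scale with an SE of 0.05, a 1.17-fold lower level (limma adjusted p = 0.00256). Relative to EV cells the difference was -0.18 ± 0.05 (limma adjusted p = 0.00882), and VAV1 with vehicle differed from EV by 0.04 ± 0.05 (limma adjusted p = 0.492). WASF2 was at 11.35, 11.38 and 11.40 in RAC1 P29S cells and 11.35, 11.36 and 11.34 in untreated EV cells, a difference of 0.03 ± 0.04 (limma adjusted p = 0.674). WASF2 shares 11.8% of its 31-base words with the pseudogene WASF4P, and its values carry that uncertainty. WASF1 was at 8.74, 8.92 and 8.61 in VAV1 cells with saracatinib, 8.96, 8.98 and 8.79 in VAV1 cells with vehicle and 9.09, 8.88 and 9.05 in EV cells with vehicle. The groups overlapped, and no comparison of WASF1 passed. The nearest to the threshold was VAV1 with saracatinib against EV with vehicle, at -0.25 ± 0.10 (limma adjusted p = 0.0565). It was past the threshold under upper-quartile scaling (limma adjusted p = 0.0473) and quantile normalization (limma adjusted p = 0.0464), and without EV vehicle replicate 2 (0.0353) or saracatinib replicate 2 (0.0213). WASF1 was at 8.80, 8.61 and 8.92 in RAC1 P29S cells and 8.77, 8.98 and 8.97 in untreated EV cells, groups that overlapped, with a difference of -0.13 ± 0.10 (limma adjusted p = 0.400).

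Measured within a library, the WASF3 minus WASF2 difference averaged -2.92 in VAV1 cells with saracatinib, -3.07 in VAV1 cells with vehicle and -3.22 in EV cells with vehicle. It averaged -3.07 in RAC1 P29S cells and -3.76 in untreated EV cells. The RAC1 P29S libraries ranged from -3.17 to -2.93 and the untreated EV libraries from -3.86 to -3.65, without overlap. This pair too was picked after its values were seen and has no test.

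PAK1, a group I kinase that is activated directly by RAC1, was lowest with saracatinib. Its log2 value was 9.43, 9.50 and 9.60 in VAV1 cells with saracatinib, 9.81, 9.74 and 9.71 in VAV1 cells with vehicle and 9.96, 10.11 and 9.79 in EV cells with vehicle. The saracatinib libraries were below all others, and the VAV1 and EV vehicle libraries overlapped. PAK1 was 1.19-fold lower with saracatinib than with vehicle, a log2 difference of -0.25 ± 0.08 with a limma adjusted p of 0.0316. That call was lost without any one of 5 libraries, with limma adjusted p of 0.0941, 0.0626 and 0.0509 without VAV1 vehicle replicates 1, 2 and 3 and of 0.109 and 0.0721 without saracatinib replicates 1 and 2. Against EV cells with vehicle the difference was larger, -0.44 ± 0.08, or 1.36-fold lower, with a limma adjusted p of 0.000768. VAV1 with vehicle differed from EV by -0.20 ± 0.08 and did not pass (limma adjusted p = 0.0724). That value was past the threshold without EV vehicle replicate 3 (limma adjusted p = 0.0172). In the second experiment PAK1 was at 9.99, 9.95 and 10.04 in RAC1 P29S cells and 9.87, 10.05 and 9.92 in untreated EV cells. The groups overlapped, and the difference was 0.05 ± 0.07 (limma adjusted p = 0.645). PAK1 shares 12.9% of its 31-base words with the antisense gene AP003680.1, and reads of those words may not be told apart either.

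PAK2, the widely expressed group I kinase, rose with RAC1 P29S. It was at 10.85, 10.68 and 10.61 in RAC1 P29S cells, against 10.42, 10.37 and 10.42 in untreated EV cells. The groups did not overlap, and the rise was 0.31 ± 0.07, or 1.24-fold, with a limma adjusted p of 0.00558. In the first experiment PAK2 was at 10.47, 10.15 and 10.41 in VAV1 cells with saracatinib, 10.50, 10.78 and 10.50 in VAV1 cells with vehicle and 10.66, 10.37 and 10.75 in EV cells with vehicle. The saracatinib libraries were all below those of VAV1 cells with vehicle, and the EV libraries overlapped both. VAV1 with vehicle differed from EV by 0.00 ± 0.11 (limma adjusted p = 0.995), a difference whose sign changed with the scaling. Saracatinib differed from vehicle by -0.26 ± 0.11 (limma adjusted p = 0.101) and from EV by -0.25 ± 0.11 (limma adjusted p = 0.0915), and the difference to EV passed without EV vehicle replicate 2 (limma adjusted p = 0.0163). A processed pseudogene, AC068446.1, shares 6.83% of the 31-base words of PAK2.

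PAK4, a group II kinase that binds CDC42 more than RAC1, was lower in VAV1 cells with saracatinib than in EV cells. It was at 9.49, 9.58 and 9.80 in VAV1 cells with saracatinib, 9.78, 9.97 and 9.94 in VAV1 cells with vehicle and 10.08, 9.75 and 10.17 in EV cells with vehicle. One saracatinib library and one EV library overlapped. The difference to EV was -0.38 ± 0.11, or 1.30-fold lower (limma adjusted p = 0.0125), and it was lost without EV vehicle replicate 3 (0.0590) or saracatinib replicate 1 (0.0549). Saracatinib against vehicle gave -0.28 ± 0.11 and did not pass (limma adjusted p = 0.0599). It passed when the fit held the 2 groups alone (limma adjusted p = 0.0269), and without EV vehicle replicate 2 (0.0205), EV vehicle replicate 3 (0.0484) or saracatinib replicate 3 (0.0256). VAV1 with vehicle differed from EV by -0.10 ± 0.11 (limma adjusted p = 0.484). With RAC1 P29S, PAK4 was at 10.18, 10.31 and 10.15, against 10.37, 10.25 and 10.11 in untreated EV cells. The groups overlapped, and the difference was -0.03 ± 0.08 (limma adjusted p = 0.796).

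NCKAP1, the scaffold that pairs with CYFIP, and ABI1, the adaptor that links WASF to kinases such as ABL, passed in no comparison. NCKAP1 was at 11.55, 11.53 and 11.56 in VAV1 cells with saracatinib, 11.45, 11.62 and 11.65 in VAV1 cells with vehicle and 11.40, 11.54 and 11.61 in EV cells with vehicle. In the second experiment it was at 11.39, 11.55 and 11.52 in RAC1 P29S cells and 11.43, 11.39 and 11.49 in untreated EV cells. All groups of an experiment overlapped, and the differences ran between -0.03 and 0.05, with a 95% interval of -0.08 to 0.19 for VAV1 with vehicle against EV. ABI1 was at 9.35, 9.24 and 9.26 in VAV1 cells with saracatinib, 9.24, 9.16 and 9.10 in VAV1 cells with vehicle and 9.10, 9.36 and 9.21 in EV cells with vehicle. It was at 9.10, 8.91 and 9.04 in RAC1 P29S cells and 9.15, 9.13 and 9.07 in untreated EV cells. Its groups overlapped as well, and the differences lay between -0.10 (RAC1 P29S, limma adjusted p = 0.379) and 0.11 (saracatinib against vehicle, limma adjusted p = 0.302).

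Whether VAV1 and RAC1 P29S acted differently on a gene was tested as the difference of the 2 effects, over 13810 genes measured in both experiments. WASF3 and CYFIP1 passed, and both values were negative, against a background of 15.8% of genes called, 8.14% higher and 7.70% lower. For WASF3 the VAV1 effect was 0.20 and the RAC1 P29S effect 0.71, a difference of -0.52 ± 0.13 (limma adjusted p = 0.0134). Within a library, WASF3 minus WASF2 averaged -3.07 both in VAV1 cells with vehicle and in RAC1 P29S cells. It averaged -3.22 in EV cells with vehicle and -3.76 in untreated EV cells. This pair has no test, and what lies behind these values was not tested. For CYFIP1 the VAV1 effect was -0.25 and the RAC1 P29S effect -0.00, a difference of -0.25 ± 0.06 (limma adjusted p = 0.00943). CYFIP2 rose under both, and its difference of -0.34 ± 0.16 did not pass (limma adjusted p = 0.160). The PAK2 difference of -0.31 ± 0.15 (limma adjusted p = 0.166) passed without EV vehicle replicate 2 (0.0414). The PAK1 difference of -0.24 ± 0.11 (limma adjusted p = 0.150) passed without EV vehicle replicate 3 (0.0488). The other 5 genes had differences between -0.07 and 0.04. The experiments differ in vehicle treatment as well as in the overexpressed gene, and these cannot be told apart.

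Among 5 tested relatives and further subunits of the complexes, ABI3 had the largest changes with VAV1, with RAC1 P29S and with saracatinib relative to vehicle. ABI3, an ABI family adaptor found mainly in blood cells and microglia, averaged 3.28 in VAV1 cells with saracatinib, 5.17 in VAV1 cells with vehicle and 3.50 in EV cells with vehicle. It rose by 1.68 ± 0.35 with VAV1 relative to EV (limma adjusted p = 0.00162) and was 1.90 lower with saracatinib than with vehicle, at -1.90 ± 0.35 (limma adjusted p = 0.000833). It averaged 4.75 in RAC1 P29S cells and 1.99 in untreated EV cells, a rise of 2.76 ± 0.37 (limma adjusted p = 0.000265). The EV mean lay under the filter of a normalized count of 10, so ABI3 was tested there through its RAC1 P29S libraries. It was tested in 11 of 15 settings, and its adjusted p is given as a description only. VAV1 cells with saracatinib differed from EV cells with vehicle by -0.22 ± 0.35 and did not pass (limma adjusted p = 0.645), where BRK1 was higher and ABI2 lower. Means this low sit near the pseudocount, which compresses fold changes. BRK1, the smallest WAVE subunit, rose with saracatinib relative to vehicle, by 0.18 ± 0.05 (limma adjusted p = 0.0144, or 0.0642 without saracatinib replicate 2), and fell by 0.23 ± 0.05 with RAC1 P29S (limma adjusted p = 0.00711). ABI2, a close relative of ABI1, was lower in VAV1 cells with saracatinib than in EV cells with vehicle, at -0.48 ± 0.08 (limma adjusted p = 0.000443). With VAV1 and vehicle ABI2 was already lower than in EV cells, at -0.25 ± 0.08 (limma adjusted p = 0.0259), a call lost in 3 of 19 settings. With saracatinib relative to vehicle it was at -0.23 ± 0.08 (limma adjusted p = 0.0462), a call lost in 12 of 19. PAK6, a group II kinase, fell by 0.62 ± 0.22 with VAV1 (limma adjusted p = 0.0381), and the call was lost under quantile normalization (0.0569), with the replicate block (0.0584), in a fit of only the groups compared (0.0582) and without any one of EV vehicle replicates 2 (0.0616) and 3 (0.131) and VAV1 vehicle replicates 2 (0.0513) and 3 (0.159). PAK3 passed in no comparison.

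The Arp2/3 complex, the actin nucleator that WAVE activates, had 3 of its 10 tested subunits higher and 1 lower with VAV1, where 23.6% of all genes were higher and 20.1% lower. ARPC5L, one of a pair of ARPC5 isoforms, rose by 0.32 ± 0.06 (limma adjusted p = 0.00125), and ARPC1B, one of a pair of ARPC1 isoforms, fell by 0.28 ± 0.06 (limma adjusted p = 0.00105). The other 2 that rose, ARPC1A and ACTR3, did so by 0.15 and 0.14, and each lost its call without any one of several libraries. With saracatinib relative to vehicle, 1 rose and 2 fell, against 18.3% and 19.1% of all genes. Relative to EV cells 3 were higher and 0 lower, against 22.4% and 21.0% of all genes. Between saracatinib and vehicle in VAV1 cells, ARPC1B rose by 0.29 ± 0.06 (limma adjusted p = 0.00104) and ARPC5L fell by 0.37 ± 0.06 (limma adjusted p = 0.000589). Both were opposite in sign to their VAV1 values, with the VAV1 vehicle libraries common to both comparisons. With RAC1 P29S, ARPC2 alone rose, 1 of 10 against 15.6% of all genes, by 0.15 ± 0.04 (limma adjusted p = 0.0174), and the call was lost without RAC1 P29S replicate 1 (limma adjusted p = 0.0688) or 2 (0.0535). The median over the 10 subunits was 0.10 with VAV1, 0.02 with saracatinib relative to vehicle and 0.01 with RAC1 P29S.

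**Figure D4:**
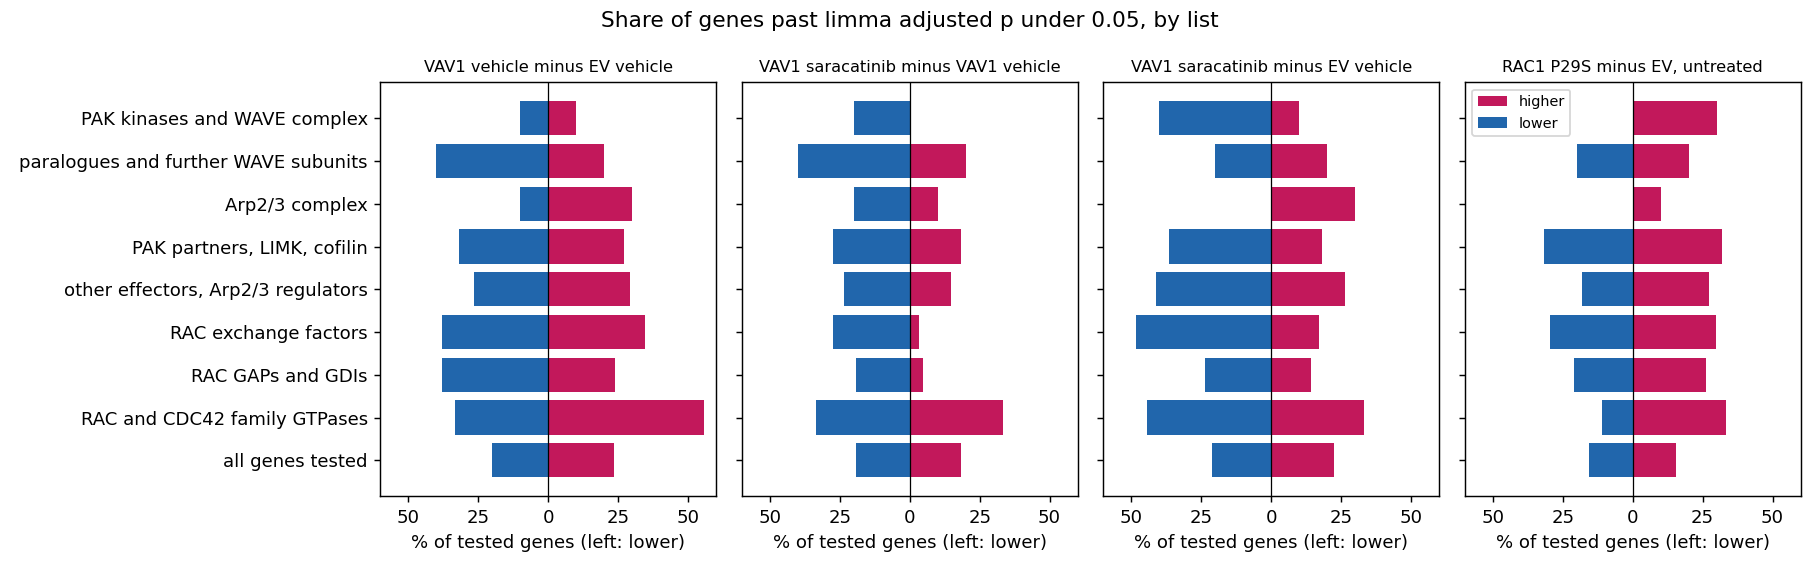
Percent of tested genes called higher and called lower (horizontal axis) in each list of the RAC1 pathway, for the 4 comparisons of 2 groups, beside the same shares for all genes tested and for the 10 PAK and WAVE genes. With VAV1, 1 of the 10 PAK and WAVE genes is higher and 1 lower, against 23.6% and 20.1% of all genes tested. Of 29 exchange factors, the overexpressed VAV1 itself included, 10 are higher and 11 lower.

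Other genes around RAC1, picked by size of change within their lists, included larger single changes than any of the 10. The shares of all genes given for comparison are 23.6% higher and 20.1% lower with VAV1, 18.3% and 19.1% with saracatinib relative to vehicle, 22.4% and 21.0% with saracatinib relative to EV cells, and 15.6% and 15.5% with RAC1 P29S. Of 22 PAK partners and members of the LIM kinase and cofilin branch, 6 rose and 7 fell with VAV1, or 27.3% and 31.8%. With saracatinib relative to vehicle 4 rose and 6 fell, or 18.2% and 27.3%, and relative to EV cells 4 were higher and 8 lower, or 18.2% and 36.4%. With RAC1 P29S, 7 rose and 7 fell, or 31.8% each. The list medians were 0.01, -0.04, -0.11 and -0.01 in this order of comparisons. MYLK, the myosin light chain kinase, rose by 1.98 ± 0.17 with VAV1 (limma adjusted p = 1.93e-06) and by 1.29 ± 0.25 with RAC1 P29S (limma adjusted p = 0.00363). ARHGEF6, the exchange factor also called alpha-PIX that binds PAK, fell by 1.18 ± 0.09 with VAV1 (limma adjusted p = 3.48e-07) and was lower with RAC1 P29S too, at -0.85 ± 0.13 (limma adjusted p = 0.000735). Saracatinib raised ARHGEF6 by 0.76 ± 0.09 relative to vehicle (limma adjusted p = 3.17e-05). NF2, which encodes merlin, a tumour suppressor and PAK substrate, rose by 0.86 ± 0.06 with RAC1 P29S (limma adjusted p = 2.51e-06). In VAV1 cells NF2 was lower with saracatinib than with vehicle, at -0.69 ± 0.06 (limma adjusted p = 6.33e-07).

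Of 29 tested exchange factors for RAC or related GTPases, VAV1 itself included, 10 rose and 11 fell with VAV1. These were 34.5% and 37.9%, against 23.6% and 20.1% of all genes. In VAV1 cells 1 rose and 8 fell with saracatinib relative to vehicle, or 3.45% and 27.6%, against 18.3% and 19.1% of all genes. Relative to EV cells, VAV1 cells with saracatinib had 5 higher and 14 lower, or 17.2% and 48.3%, against 22.4% and 21.0% of all genes. With RAC1 P29S, 8 rose and 8 fell of 27, or 29.6% each, against 15.6% and 15.5% of all genes. One call with saracatinib relative to vehicle, DOCK10, was lost in 9 of 19 settings. The list medians were -0.07, -0.18, -0.25 and -0.05 in this order of comparisons. DOCK2, an exchange factor of blood cells, averaged 6.97 in VAV1 cells with saracatinib, 8.93 in VAV1 cells with vehicle and 5.85 in EV cells with vehicle. It rose by 3.08 ± 0.23 with VAV1 (limma adjusted p = 2.58e-07) and by 2.92 ± 0.13 with RAC1 P29S (limma adjusted p = 1.12e-07). With saracatinib it was lower than with vehicle, at -1.97 ± 0.23 (limma adjusted p = 2.46e-05). TRIO, a widely expressed RAC exchange factor, was also lower with saracatinib than with vehicle, at -0.81 ± 0.09 (limma adjusted p = 1.54e-05). DOCK3, a relative of DOCK2 known from neurons, rose by 1.19 ± 0.26 with RAC1 P29S (limma adjusted p = 0.00573).

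Of 21 tested GTPase activating proteins and GDP dissociation inhibitors, 5 rose and 8 fell with VAV1, or 23.8% and 38.1%, against 23.6% and 20.1% of all genes. Saracatinib relative to vehicle gave 1 higher and 4 lower, or 4.76% and 19.0%, against 18.3% and 19.1%, and relative to EV cells 3 were higher and 5 lower, or 14.3% and 23.8%, against 22.4% and 21.0%. Of 19 tested in the second experiment, 5 rose and 4 fell with RAC1 P29S, or 26.3% and 21.1%, against 15.6% and 15.5%. The list medians were -0.13, -0.05, -0.13 and 0.17 in this order of comparisons. ARHGDIB, a GDP dissociation inhibitor of blood cells, rose by 2.22 ± 0.15 with VAV1 (limma adjusted p = 4.35e-08) and by 2.52 ± 0.22 with RAC1 P29S (limma adjusted p = 1.52e-05). It was lower with saracatinib than with vehicle, at -1.52 ± 0.15 (limma adjusted p = 3.14e-06). SRGAP1 rose by 0.83 ± 0.16 with VAV1 (limma adjusted p = 0.00129) and by 1.21 ± 0.18 with RAC1 P29S (limma adjusted p = 0.000638).

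Of the 9 RAC and CDC42 family GTPases, 5 rose and 3 fell with VAV1, against 23.6% and 20.1% of all genes. One of the 5, RAC1 at 0.12 ± 0.05 (limma adjusted p = 0.0451), lost its call in 12 of 19 settings. With saracatinib relative to vehicle 3 rose and 3 fell, against 18.3% and 19.1% of all genes. Among the 3 that fell, RAC3 lost its call in 14 of 19 settings and RHOG in 6 of 19, and among the 3 that rose RHOJ did in 4 of 19 and RHOV in 2 of 18. Relative to EV cells 3 were higher and 4 lower, against 22.4% and 21.0% of all genes. With RAC1 P29S, 3 rose and 1 fell, against 15.6% and 15.5% of all genes. One of the 3 was RAC1 itself, the overexpressed gene, and the other 2, RAC2 and RHOJ, lost their calls in 4 of 14 and 5 of 15 settings, each without any one of several libraries. The list medians were 0.23, -0.09, 0.11 and 0.15 in this order of comparisons. RAC2, the RAC of blood cells, averaged 5.45 in VAV1 cells with vehicle and 3.52 in EV cells with vehicle, a rise of 1.93 ± 0.27 (limma adjusted p = 6.22e-05). RAC1 was lower with saracatinib than with vehicle, at -0.33 ± 0.05 (limma adjusted p = 7.80e-05). RHOU fell by 1.48 ± 0.23 with VAV1 (limma adjusted p = 0.000149) and was lower with RAC1 P29S as well, at -1.41 ± 0.23 (limma adjusted p = 0.000957). RHOQ, also known as TC10, was higher with saracatinib than with vehicle, at 1.05 ± 0.06 (limma adjusted p = 2.02e-08).

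Of 34 tested further effectors and regulators of Arp2/3, 10 rose and 9 fell with VAV1, or 29.4% and 26.5%, against 23.6% and 20.1% of all genes. Saracatinib relative to vehicle gave 5 higher and 8 lower, or 14.7% and 23.5%, against 18.3% and 19.1%, and relative to EV cells 9 were higher and 14 lower, or 26.5% and 41.2%, against 22.4% and 21.0%. Of 33 tested in the second experiment, 9 rose and 6 fell with RAC1 P29S, or 27.3% and 18.2%, against 15.6% and 15.5%. The list medians were -0.03, -0.06, -0.15 and 0.10 in this order of comparisons. CORO1C, a coronin that modulates Arp2/3 branches, rose by 0.99 ± 0.05 with VAV1 (limma adjusted p = 3.87e-09) and by 1.22 ± 0.05 with RAC1 P29S (limma adjusted p = 5.45e-08). CDC42EP1, a CDC42 effector, rose by 1.09 ± 0.15 with VAV1 (limma adjusted p = 6.38e-05) and by 1.77 ± 0.15 with RAC1 P29S (limma adjusted p = 1.07e-05). It was lower with saracatinib than with vehicle, at -1.96 ± 0.15 (limma adjusted p = 4.31e-07). IQGAP2, a scaffold that binds RAC1 and CDC42, rose by 2.40 ± 0.15 with saracatinib relative to vehicle (limma adjusted p = 4.79e-08). WIPF1, a partner of WASP proteins, fell by 1.01 ± 0.07 with VAV1 (limma adjusted p = 1.01e-07).

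Several of these genes, ABI3, DOCK2, ARHGDIB and RAC2, are best known from blood cells, so haematopoietic markers are given beside them. Of 10 markers 7 were listed, and 4 had a mean normalized count of at least 10. The sum was 336 to 405 in VAV1 cells with saracatinib, 484 to 560 in VAV1 cells with vehicle and 384 to 421 in EV cells with vehicle. It was 534 to 687 in RAC1 P29S cells and 251 to 330 in untreated EV cells. CORO1A weighs heavily in the sum and moved opposite to it with VAV1. It averaged 7.17 in VAV1 cells with saracatinib, 7.91 in VAV1 cells with vehicle and 8.295 in EV cells with vehicle. ITGB2 averaged 4.04, 5.71 and 5.14 in the same order of groups. In the second experiment CORO1A averaged 8.07 in RAC1 P29S cells and 7.77 in untreated EV cells, and ITGB2 averaged 5.28 and 4.30. CD33 averaged 7.18 in VAV1 cells with saracatinib, 7.38 in VAV1 cells with vehicle and 4.94 in EV cells with vehicle, and LCP1 averaged 5.68, 5.96 and 3.51 in the same order of groups. In the second experiment CD33 averaged 7.21 in RAC1 P29S cells and 4.32 in untreated EV cells, and LCP1 averaged 7.01 in RAC1 P29S cells and 3.22 in untreated EV cells. Of the 4 tested markers 2 were higher with VAV1, 3 with RAC1 P29S and 2 with saracatinib relative to EV cells, where 2 were lower, and the median log2 fold change was 1.502, 1.938 and 0.538 in that order. PTPRC, the pan-leukocyte marker, averaged 2.32 to 2.74 in all 5 groups. The defining markers CD3E and SPI1 were not listed. The part of such cells in the results was not tested. In bulk RNA, fewer cells with a transcript and less of it per cell cannot be told apart.

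The genes most like CYFIP2 over the 9 libraries of the first experiment were FAM110C, ZNF765, ZNF559, CPOX and BNIP3L, with Pearson r of 0.986, 0.976, 0.973, 0.964 and 0.959. All of these libraries share 1 experiment and the step between EV and VAV1 cells, and 193 tested genes had r over 0.9. Over the 6 libraries of the second experiment they were MAPRE1, FOXD1, MAPKBP1, DNAJC7 and AEBP1, each with r of 0.997 or 0.998, among 1252 genes over 0.9. The lists have no gene in common. BNIP3L had an r of 0.80 over the libraries of the second experiment, and ZNF765 one of -0.36.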

How the data were processed

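RNA was extracted as total RNA and prepared with a TruSeq kit, per the labels' protocols. The authors deposited, for each of 15 libraries, a log2 value per gene symbol (log2 of normalized count plus 1). The submitters' processing notes name kallisto, DESeq2 and GRCh38, without versions or annotation release. Whole reads could not be recovered, so counts were not tested and no counting interval is given. Samples were grouped by title.

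limma 3.58.1 in R 4.3.3 was fitted with 1 mean per group, empirical Bayes with trend and robust estimation, two-sided. Tested genes reached a normalized count of 10 in 3 or more libraries. One fit held the 9 vehicle and saracatinib libraries, one the 6 untreated libraries, and one, for the difference of effects, all 15 of them. P-values were Benjamini-Hochberg adjusted over all genes tested, with a threshold of 0.05, and intervals are 95%. Error values after ± are SE for differences and SD for levels. The method was tested on simulated data. The 10 genes, the pathway lists and the tests were chosen with earlier results of these data known. All 10 genes passed the filter in both experiments. From each pathway list the rule names called genes with the 3 highest absolute changes and a mean log2 value of at least 5 in the higher group, of which the text prints some, besides every tested paralogue or subunit. NIPA2, ABI3 with RAC1 P29S (a mean under that value) and the paralogue pairs were picked after their values were seen. Shared 31-base words were counted in GENCODE 29 transcripts, and promoters came from RefSeq, in which 9 of the 10 genes were matched.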

Additional observations from a re-analysis of the deposited data

Results flagged for a closer look

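Groups of 3 libraries were too small for a check of single outlying libraries. The effects of VAV1 and RAC1 P29S differed for 2 of the 10 genes by the test of the difference itself, where 15.8% of all 13810 genes tested passed. WASF3 rose by 0.71 ± 0.11 with RAC1 P29S and differed by 0.20 ± 0.09 with VAV1, and the VAV1 effect minus the RAC1 P29S effect was -0.52 ± 0.13 (limma adjusted p = 0.0134). Within a library, WASF3 minus WASF2 averaged -3.07 in VAV1 cells with vehicle and in RAC1 P29S cells. It averaged -3.22 in EV cells with vehicle and -3.76 in untreated EV cells, and this pair has no test. CYFIP1 fell by 0.25 ± 0.04 with VAV1 and differed by -0.00 ± 0.05 with RAC1 P29S, and the difference of the effects was -0.25 ± 0.06 (limma adjusted p = 0.00943). Both calls held in all settings run. The overexpressed gene and the experiment, with or without vehicle, cannot be told apart in these differences.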

How the results depend on the processing

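Across the 10 genes, leaving out 1 library left 435 gene results on the same side of 0 and of the threshold, turned the sign of 29, added 9 calls and lost 7, all of PAK1 or PAK4 under saracatinib. Some of these libraries belonged to a group outside the comparison. Leaving those out kept the difference itself and changed only its SE and adjusted p, so their results could not turn sign. The other settings left 460, turned 13, added 7 calls and lost none. The calls of CYFIP2 and CYFIP1 with VAV1, of WASF2 with saracatinib, and of CYFIP2, WASF3 and PAK2 with RAC1 P29S were kept in all settings run. With VAV1, 2 of the 10 genes were lower under upper-quartile scaling and under quantile normalization, with PAK1 added (adjusted p = 0.0465 and 0.0454), and 1 to 2 when a library was left out. With saracatinib relative to vehicle, 1 was higher under quantile normalization (CYFIP1), and 1 to 3 were lower when a library was left out. Against EV cells 3 to 6 were lower, and for the difference of effects 2 to 3, when a library was left out. No setting moved the median of all genes by over 0.1.

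Signs that turned belonged to differences near 0 that were not called. Under median-of-ratios scaling the PAK2 difference with VAV1 was -0.0119 and the NCKAP1 difference of effects -0.0122. Under upper-quartile scaling PAK2 with VAV1 was -0.0235, CYFIP1 with RAC1 P29S 0.0124, and the differences of effects -0.0108 for WASF1, -0.0247 for WASF2 and -0.0377 for NCKAP1. Under quantile normalization PAK2 with VAV1 was -0.0164, CYFIP1 with RAC1 P29S 0.0223, CYFIP2 with saracatinib -0.000702, NCKAP1 with saracatinib 0.0304, and the differences of effects -0.0291 for WASF2 and -0.0471 for NCKAP1. With a library left out, the VAV1 range was -0.00564 to 0.114 for NCKAP1, -0.112 to 0.0802 for PAK2 and -0.118 to 0.0101 for ABI1. The range for saracatinib against vehicle was -0.0381 to 0.0912 for CYFIP2 and -0.0851 to 0.0112 for NCKAP1, and against EV it was -0.0308 to 0.0764 for NCKAP1 and -0.00488 to 0.123 for ABI1. The RAC1 P29S range was -0.0987 to 0.0339 for PAK4 and -0.0320 to 0.0115 for CYFIP1. The difference of effects ranged over -0.0570 to 0.0628 for NCKAP1, -0.0171 to 0.111 for ABI1, -0.0533 to 0.103 for WASF1, -0.00402 to 0.0407 for WASF2 and -0.195 to 0.0145 for PAK4. The cause was not tested.

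Same-numbered libraries did not deviate together, with residual correlations of -0.0547 to 0.0125. A fit with the replicate number as a block gave 1 higher and 1 lower gene of the 10 with VAV1, 0 and 3 with saracatinib relative to vehicle, 1 and 4 against EV, and 3 and 0 with RAC1 P29S, with PAK4 added under saracatinib (-0.28, adjusted p = 0.0413). Fitting only the groups compared applies neither to RAC1 P29S, whose fit already does, nor to the difference of effects. Among pathway genes, calls near the threshold were lost in some settings and none changed sign. For saracatinib relative to vehicle, RAC3 lost its call in 14 of 19 settings, ABI2 (-0.23) in 12 and DOCK10 in 9, while ABI2 relative to EV cells kept its call in all 19. Depth in reads is unknown, so the precision of low genes such as ABI3 rests on the spread of 3 libraries.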
